A study of Mus musculus with 8 samples.

Results

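The 39 genes described here encode the machinery that copies DNA in S phase, from the licensing factors Cdc6 and Cdt1 to the enzymes that join new strands and copy their methylation. They were taken as a named list and not by a cutoff on any measured value, but earlier results of these data were known. All 39 had a row among the 18174 gene symbols of the series. The series measured polyadenylated RNA of single long-term haematopoietic stem cells (LT-HSC) with mCEL-Seq2, a plate method that marks each captured RNA near its 3' end with a well barcode and a random tag, the unique molecular identifier (UMI), so that each molecule counts once. The cells came from the bone marrow of untreated wild-type male C57BL/6J mice aged 18 months. They were sorted as Lin-CD150+CD48-CD34-Kit+Sca1+ and split by the surface protein Dlk1 into a Dlk1+ and a Dlk1- group with 4 libraries each. In both groups replicates 1 and 2 belonged to plate 5 and replicates 3 and 4 to plate 6. No animal is named for a library, so p-values measure the spread between libraries, which may be technical.

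At the start of the cell cycle, the origin recognition complex, Cdc6 and Cdt1 load the Mcm2 to Mcm7 ring onto DNA, and Cdc45 and the GINS proteins then turn it into the active helicase. Primase and the replicative polymerases copy the strands, the clamp Pcna holds the polymerases on DNA, and ligase joins the fragments of the lagging strand. Transcripts of many of these genes are made from late G1 on under the E2F factors. LT-HSC are known to be mostly out of cycle.

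A library held between 26 and 96 cells, 541 in all, with 39073 to 517559 transcripts. Dlk1+ replicate 3 was the shallowest, with a median of 1300 transcripts per cell against 3421 to 5584 in the other libraries. Dlk1+ replicates 2 and 3 and Dlk1- replicate 2 had 27, 26 and 36 cells. No cell had the same profile in more than 1 library. The sort was visible in the RNA. Dlk1 was one of the 2 genes called between the groups, the other being Timp3, and all 8 stem cell markers had transcripts in every library. Of the markers of other cell types, those of T cells, Lyz2 and Cdh5 were at 0 in every library and Cd48 in 7 of the 8. Others were present, among them myeloid Prtn3, endothelial Kdr and Emcn in 7 libraries each, Flt3 and Cd79b in 6, stromal Cxcl12 in 4, and erythroid Car2 in all 8, which reached 801.5 CPM (transcripts of a gene per 1000000 transcripts of its library). Cd34, whose protein was selected against, had up to 78.1 CPM in 7 libraries. One cell stood apart. Barcode 91 of Dlk1+ replicate 4 carried 36327 UMIs, 8.07% of its library, with 1958 UMIs of the myeloid markers (Mpo, Elane, S100a8 and others). The next highest cell had 11. It also held 101 UMIs of 33 replication genes, 12.3% of those in its library, and results are given without it where it matters.

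Short stretches of sequence before 6 of the genes are shown first, because the members are compared below by how far their transcripts fall into the same cells, and the E2F factors read such DNA. The bases come from RefSeq (GRCm38.p6, the assembly of mm10 that the submitters' processing notes name), and each stretch runs 5' to 3' on the gene's strand and lies before its annotated start. Capitals mark 2 kinds of letters, on either strand. The first is an E2F heptamer, spelled TTCCCGC in one form, TTCGCGC in the next, TTGCCGC in the third and TTGGCGC in the fourth. The second is the CCAAT box, the pentamer bound by NF-Y. Overlapping matches were each counted. The stretches of Mcm5 and Mcm6 hold overlapping E2F heptamers, those of Rrm1 and Rrm2 hold 1 each, and those of Dnmt1 and Mcm2 hold 3 CCAAT boxes and 1 (ATTGG where it lies on the other strand) and no heptamer.
Mcm5: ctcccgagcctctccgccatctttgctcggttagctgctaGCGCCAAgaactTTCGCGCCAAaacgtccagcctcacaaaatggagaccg
Mcm6: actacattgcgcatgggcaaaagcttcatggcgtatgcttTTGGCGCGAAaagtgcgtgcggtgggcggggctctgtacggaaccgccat
Rrm1: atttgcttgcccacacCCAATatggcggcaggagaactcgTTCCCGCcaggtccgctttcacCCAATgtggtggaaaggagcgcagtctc
Rrm2: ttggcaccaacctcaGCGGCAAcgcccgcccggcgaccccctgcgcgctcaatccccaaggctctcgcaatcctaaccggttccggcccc
Dnmt1: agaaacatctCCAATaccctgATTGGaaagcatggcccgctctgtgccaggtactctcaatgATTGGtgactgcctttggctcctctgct
Mcm2: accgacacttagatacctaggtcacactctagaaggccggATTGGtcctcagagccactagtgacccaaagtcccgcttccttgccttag
They lie at chr8:75109305-75109394 (+ strand), chr1:128359765-128359854 (- strand), chr7:102441588-102441677 (+ strand), chr12:24708004-24708093 (+ strand), chr9:20959889-20959978 (- strand) and chr6:88898906-88898995 (- strand), where GENCODE M21 has no exon.

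Of the 39 genes, 31 had a RefSeq promoter entry, and Gins1, Gins2, Mcm4, Pole, Prim2, Rfc2, Tipin and Usp1 had none. In the 250 bases before the start, 14 of the 31 (45.2%) held an E2F heptamer, against 8.0% of 27025 promoters with an entry and 15.6% of the 4349 whose gene was tested here. The CCAAT box stood in 21 of the 31 (67.7%), against 34.5% of all and 35.2% of the tested promoters. TTTGAA, the cell cycle homology region of genes used in mitosis, stood in 5 of the 31 (16.1%), against 16.3% of all and 9.9% of the tested promoters. A match describes the letters and is not evidence of binding.

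The first question was which replication genes had transcripts in these cells. All 39 did, with 4279 UMIs in the 541 cells. A UMI was found in all 8 libraries for 25 genes and in 4 to 7 libraries for the other 14. The barcodes that a library did not use served as a background. These barcodes, 728 in all, held 51 UMIs of the 39 genes among 23663, against 4279 among 2604870 in the 541 cells. As a share of its own transcripts, the background had 3826, 2910, 1909 and 1904 CPM in Dlk1- replicates 1 to 4. The cells there had less, 1606, 1719, 1500 and 1249 CPM. Dlk1+ replicate 3 was alike (4115 against 2227 CPM), while Dlk1+ replicates 1, 2 and 4 had more in the cells. These background levels rest on 1 to 16 UMIs per library. Transcripts that spilled over from the cells would have the same share, which was not tested, so the share cannot set cells and background apart. The number of UMIs does, with 51 on 728 barcodes against 4279 in 541 cells. In Dlk1+ replicate 3, 25 of the 39 were detected. A count of 0 in that library allows up to 76.8 CPM (3 counts), more than the level of most members, so a 0 there says little.

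The Mcm ring and the clamp with its loader made up the largest shares, 25.4% and 24.5% of the members' UMIs. The plot of levels by library shows how far the 8 libraries spread for each gene. Each UMI stands for 1 captured 3' end, so these levels are not per length, and capture can differ between genes.

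**Figure D1:**
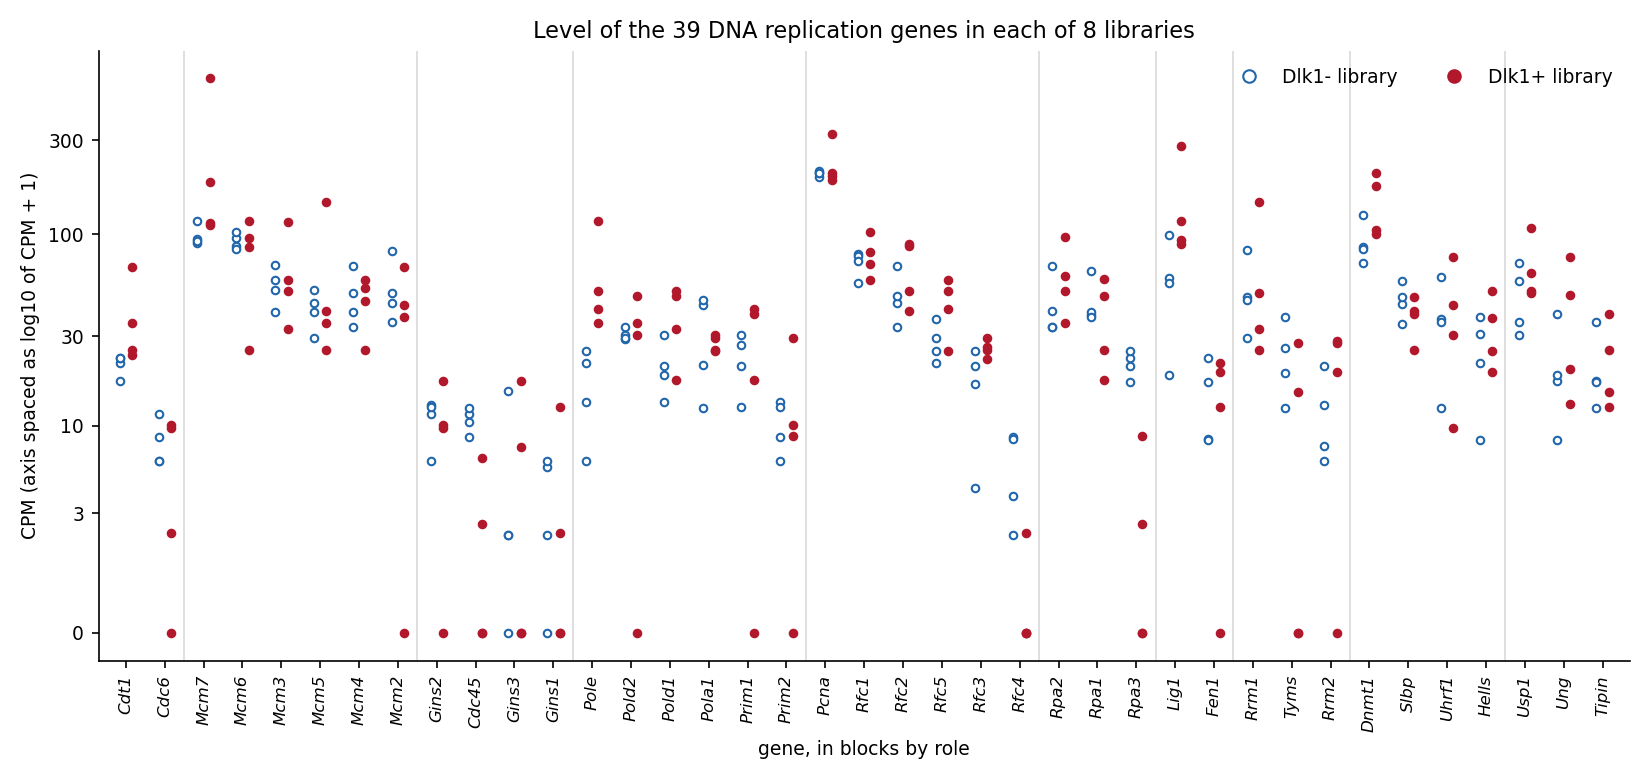
Level of the 39 replication genes in CPM, on an axis spaced as log10 of CPM + 1, in blocks by role. Each point is 1 library (open blue Dlk1-, filled red Dlk1+, 4 each); Pcna sits near 200 CPM in 7 of 8 libraries, and Mcm7 reaches 615 CPM in Dlk1+ replicate 3.

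Pcna, the sliding clamp (chr2:132249286-132253180 in GRCm38), was the member with the most UMIs, 551 in 239 cells (44.2%). Its level was 195, 204, 210 and 205 CPM in Dlk1- replicates 1 to 4 and 197, 322, 205 and 188 CPM in Dlk1+ replicates 1 to 4. The groups overlapped, and only Dlk1+ replicate 2 stood above the rest. On the log2 scale Dlk1+ stood 0.12 above Dlk1- (standard error 0.25, adjusted p 0.94 by limma-voom, with Benjamini-Hochberg adjustment over all genes tested here and below). A row for the processed copy Pcna-ps2 held 111 UMIs of its own, and reads of the 2 may not be fully separated. Of the 5 loader subunits, Rfc1, the large one, had 56.8 to 79.2 CPM in Dlk1- and 58.6 to 102 CPM in Dlk1+ libraries. Rfc4 had 10 UMIs in all, and its exons overlap those of Eif4a2 on the other strand, so reads from the 2 cannot be told apart where strand was not counted.

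The 6 subunits of the Mcm helicase had 1085 UMIs together, in 289 of the 541 cells (53.4%). Mcm7 (chr5:138164583-138172111), the most abundant, had 94.7, 117, 90.5 and 92.3 CPM in Dlk1- and 111, 185, 615 and 114 CPM in Dlk1+ libraries. The value of 615 CPM in replicate 3 rests on 24 UMIs in 9 cells. Its log2 fold change was 0.71 (standard error 0.34, adjusted p 0.751), and 0.39 without Dlk1+ replicate 3. Exons of Ap4m1 and Cops6 overlap Mcm7 on the other strand.

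Mcm6, the next in level, had 87.0, 95.5, 84.1 and 103 CPM in Dlk1- and 86.0, 117, 25.6 and 96.3 CPM in Dlk1+ libraries. Mcm3 had 69.6, 52.1, 39.97 and 58.7 CPM against 32.9, 58.5, 51.2 and 116 CPM, and Mcm5 had 44.5, 52.1, 39.97 and 29.4 CPM against 40.4, 146, 25.6 and 35.0 CPM. In both, 1 Dlk1+ library was far above the others and the remaining ones overlapped the Dlk1- range. Mcm4 had 50.2, 69.5, 39.96 and 33.5 CPM in Dlk1- and 53.1, 58.5, 25.6 and 46.0 CPM in Dlk1+ libraries. Mcm2 had 44.5, 82.5, 50.5 and 35.6 CPM in Dlk1- and 37.9, 68.3, 0 and 43.8 CPM in Dlk1+ libraries, and had the largest negative log2 fold change of the tested members (-0.32, standard error 0.41, adjusted p 0.896). The UMIs of the 6 subunits ran from 116 for Mcm5 to 302 for Mcm7, and 0 of the 6 differed between the groups past the threshold.

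The factors that load and start the helicase were rare. Cdt1 (chr8:122568015-122573130), which brings the Mcm ring to origins, had 17.4, 21.7, 23.1 and 23.1 CPM in Dlk1- and 35.4, 68.3, 25.6 and 24.1 CPM in Dlk1+ libraries. All 4 Dlk1+ values lay above the Dlk1- values, the closest at 24.1 against 23.1 CPM, and the value of Dlk1+ replicate 3 came from 1 UMI. The log2 fold change was 0.62 (standard error 0.38, adjusted p 0.802). It was 1.12 without Dlk1+ replicate 4, 1.24 between the plate 5 libraries and 0.17 between those of plate 6. Cdc6 had 20 UMIs in 18 cells. Of the helicase partners, Gins2 was the most abundant, with 31 UMIs (its exons overlap those of Gse1 on the other strand), at 11.6, 13.0, 12.6 and 6.29 CPM in Dlk1- and 10.1, 9.76, 0 and 17.5 CPM in Dlk1+ libraries. Cdc45, which rides with the Mcm ring, had 11.6, 8.68, 10.52 and 12.6 CPM in Dlk1- and 2.53, 0, 0 and 6.57 CPM in Dlk1+ libraries. These values did not overlap, but they come from 19 and 4 UMIs, and the 2 zeros allow up to 29.3 and 76.8 CPM.

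Among the polymerases, Pole (chr5:110286319-110337468), the catalytic subunit of the leading-strand polymerase, had the largest log2 fold change of the tested members. It had 13.5, 21.7, 6.31 and 25.2 CPM in Dlk1- and 35.4, 117, 51.2 and 41.6 CPM in Dlk1+ libraries. All 4 Dlk1+ libraries lay above all 4 Dlk1- libraries. The means were 61.3 ± 37.8 and 16.7 ± 8.46 CPM (SD, n = 4 each), from 47 and 27 UMIs. The log2 fold change was 1.69 (standard error 0.43, unadjusted p 0.00107, adjusted p 0.55 by limma-voom), so the difference did not pass the threshold. It was 1.74 between the plate 5 libraries alone and 1.70 between the plate 6 libraries alone, and between 1.30 and 1.99 when any 1 library was left out. The largest value in 1 cell was 3 UMIs, and the Pole UMIs lay in 55 cells. Pold1, Pold2, Pola1 and Prim1, the other tested subunits of polymerases and primase, had log2 fold changes of 0.68, 0.00, 0.25 and 0.36.

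Lig1 (chr7:13277175-13311426), the ligase that seals Okazaki fragments, came next. It had 59.9, 99.9, 56.8 and 18.9 CPM in Dlk1- and 93.6, 117, 282 and 89.8 CPM in Dlk1+ libraries. Dlk1- replicate 2 overlapped the Dlk1+ range and Dlk1- replicate 4 was the lowest of the 8. The log2 fold change was 1.25 (standard error 0.43, unadjusted p 0.00992, adjusted p 0.701 by limma-voom). Without Dlk1- replicate 4 it was 0.65, and it was 0.57 between the plate 5 libraries against 1.89 between those of plate 6. Fen1, the flap nuclease of the same step, had 41 UMIs and shares exonic sequence with Tmem258 on the other strand.

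The single-strand binding proteins Rpa1, Rpa2 and Rpa3 form 1 trimer that coats unwound DNA. Rpa2 had 40.6, 69.4, 33.7 and 33.5 CPM in Dlk1- and 35.4, 97.6, 51.2 and 61.3 CPM in Dlk1+ libraries. Rpa1 had 38.6, 65.1, 39.96 and 37.7 CPM against 17.7, 48.8, 25.6 and 59.1 CPM, with a log2 fold change of -0.15 (standard error 0.36). Rpa3, the small subunit, had 23.2, 17.4, 25.2 and 20.96 CPM in Dlk1- and 2.53, 0, 0 and 8.76 CPM in Dlk1+ libraries, from 38 and 5 UMIs. Its groups did not overlap, but it was below the count filter. The zeros of Dlk1+ replicates 2 and 3 allow up to 29.3 and 76.8 CPM, more than any Dlk1- value. With no filter the log2 fold change of Rpa3 was -1.84 (unadjusted p 0.00177, adjusted p 0.434 by limma-voom). Whether the 3 genes differed from each other in their change was not tested.

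In the nucleotide supply, Rrm1, the large subunit of ribonucleotide reductase, had 83.1, 47.7, 46.3 and 29.3 CPM in Dlk1- and 32.9, 146, 25.6 and 50.4 CPM in Dlk1+ libraries. The groups overlapped, with Dlk1+ replicates 2 and 3 as the highest and the lowest of the 8. Its partner Rrm2 had 46 UMIs and the thymidylate synthase Tyms had 58. Among the genes that copy histones and methylation, Dnmt1, the maintenance DNA methyltransferase, had 125.6, 86.8, 84.2 and 71.3 CPM in Dlk1- and 101, 176, 205 and 105 CPM in Dlk1+ libraries. The log2 fold change was 0.48 (standard error 0.29, adjusted p 0.795), with Dlk1- replicate 1 inside the Dlk1+ range. Slbp, which binds the end of histone mRNA, had 58.0, 34.7, 44.2 and 48.2 CPM against 40.4, 39.03, 25.6 and 48.2 CPM. Usp1, the deubiquitinase of the clamp, led the fork protection genes with 58.0, 30.4, 71.5 and 35.6 CPM in Dlk1- and 50.6, 107, 51.2 and 63.5 CPM in Dlk1+ libraries.

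The second question was whether the genes differed between the sorts. Of the 39 genes, 26 passed the count filter and 0 were called at an adjusted p under 0.05 by limma-voom, where 0.0353% of the 5666 genes tested were called higher and 0% lower in Dlk1+ libraries. At an unadjusted p under 0.05, 2 of the 26 were higher (Pole and Lig1) and 0 lower, against 2.31% and 4.18% of all genes tested. By limma-trend 0 of the 26 were called, and at an unadjusted p under 0.05 3 were higher (Pole, Lig1 and Mcm7) and 0 lower, against 2.77% and 5.07% of all genes tested. The CPM of 2 tested members, Pole and Cdt1, did not overlap and was higher in Dlk1+ libraries, against 1.11% of the genes tested, and 0 were lower without overlap, against 2.03%. Over all 39 genes the lower side had 2 members (Rpa3 and Cdc45), where 0.514% of the 17884 genes with a transcript were higher and 1.58% lower without overlap. The 13 members below the filter were Cdc6, Cdc45, Gins1, Gins2, Gins3, Prim2, Rfc4, Rpa3, Fen1, Rrm2, Tyms, Tipin and Ung.

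The log2 fold change was above 0 for 22 of the 26 tested members, with a median of 0.35 beside -0.04 over all genes tested. This count depended on 1 library. Without Dlk1- replicate 4 it was above 0 for 15 of 29, with a median of 0.05. Between the plate 5 libraries it was above 0 for 11 of 21 (median 0.10) and between those of plate 6 for 20 of 26 (0.36). With no count filter it was above 0 for 28 of 39 (median 0.20), where the median of all genes was 0.24. The plot of fold changes by gene shows that the bars of 1 standard error cross 0 for 14 of the 26.

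**Figure D2:**
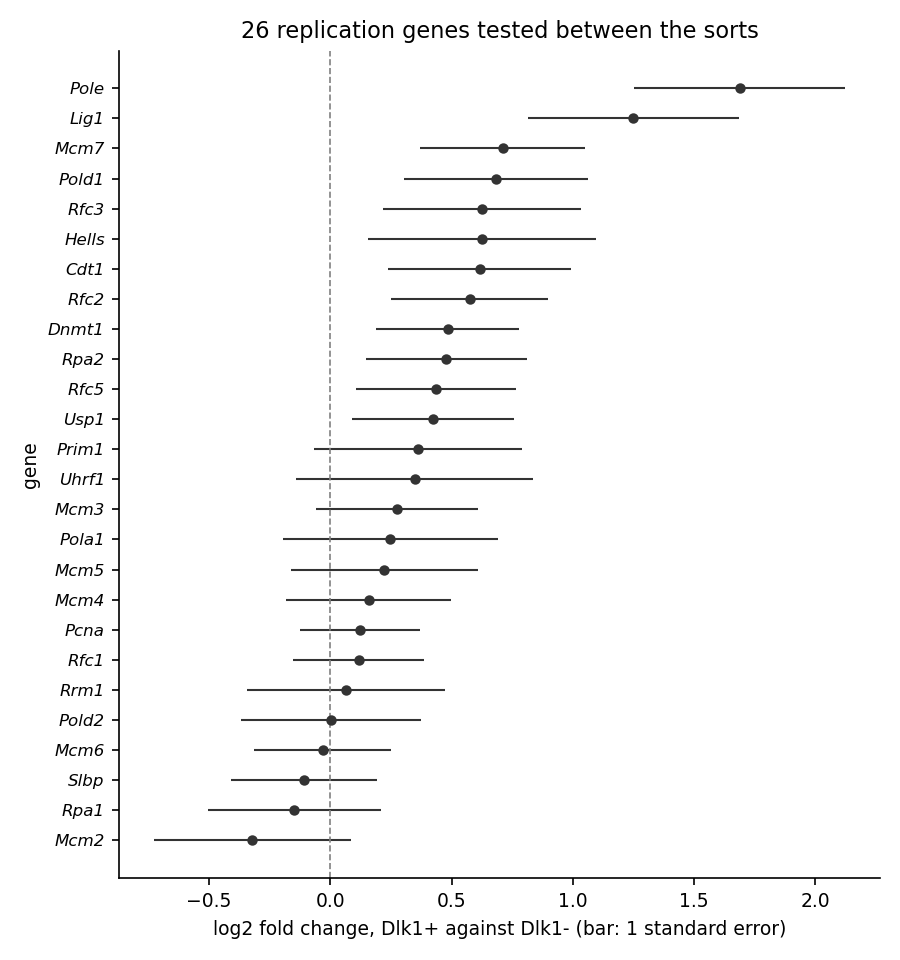
Log2 fold change of Dlk1+ against Dlk1- libraries for the 26 tested replication genes, with bars of 1 standard error (limma-voom, 4 libraries each). Pole (1.69) and Lig1 (1.25) lie farthest to the right and Mcm2 (-0.32) farthest to the left, and 0 of the 26 passed the adjusted threshold.

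Summed over the 39 genes, the level was 1606, 1719, 1500 and 1249 CPM in Dlk1- replicates 1 to 4 and 1464, 2479, 2227 and 1802 CPM in Dlk1+ replicates 1 to 4. The means were 1519 ± 201 and 1993 ± 450 CPM (SD, n = 4 each), and the groups overlapped through Dlk1+ replicate 1. The transcripts Gm10800 and Gm26870 made up 10.1% to 32.8% of a library and count in these totals. Without them the Dlk1- libraries had 1415 to 2344 CPM. Dlk1+ replicates 1 to 4 then had 2179, 3230, 2937 and 2005 CPM, so replicate 4 also lay inside the Dlk1- range. The 2 highest libraries, Dlk1+ replicates 2 and 3, were those with the fewest cells. The difference of the means, 474 CPM, was 181 CPM without the 3 libraries of under 50 cells, and without barcode 91 the Dlk1+ mean was 1973 ± 463 CPM. Over a whole library, fewer cells with these transcripts and fewer transcripts per cell cannot be told apart, so the cells were looked at next.

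The third question was whether the signal sat in few cells. Each cell was thinned to 1000 UMIs at random so that depth was equal, which left out 0 of the 541 cells. These 1000 UMIs include those of Gm10800 and Gm26870. At that depth 225 cells had 0 UMIs of the 39 genes, 165 had 1 and 69 had 2. The tail was long. In 38 cells (7.02%) there were at least 5, and these cells held 40.3% of the members' UMIs. The 17 cells (3.14%) with at least 8 held 23.5%. The highest cell, in Dlk1+ replicate 4, had 15 of its 1000 UMIs from 13 of the genes, and 51 UMIs from 25 of the genes at its full depth of 4007. Cells with at least 5 were found in all 8 libraries, between 2 and 8 per library.

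**Figure D3:**
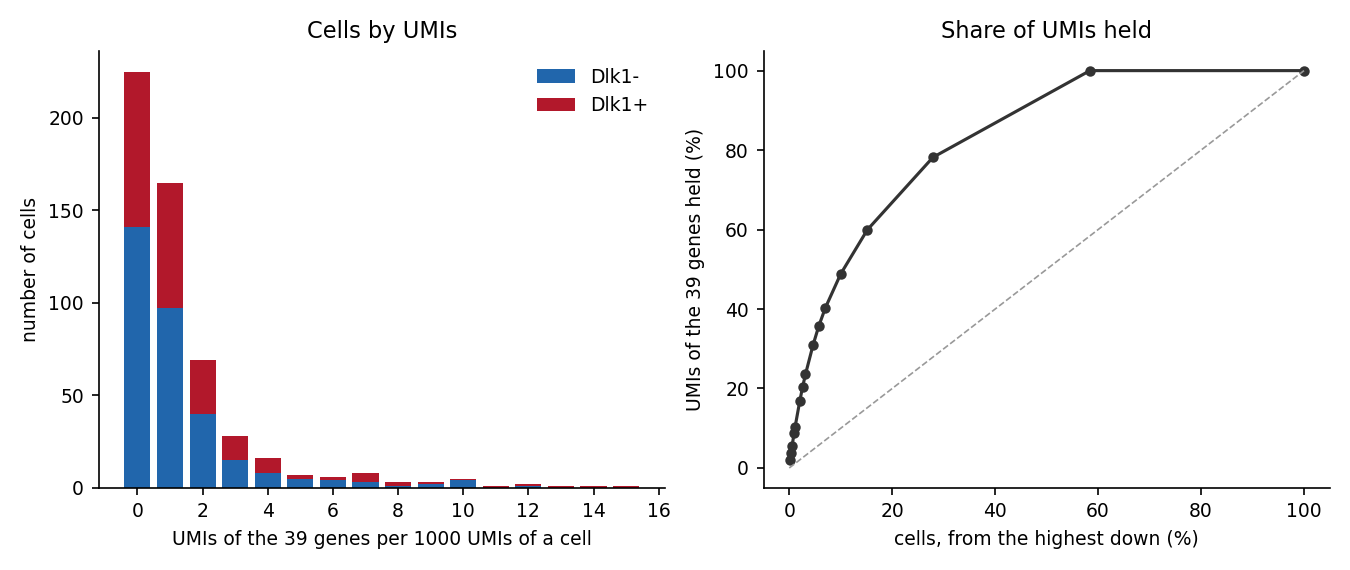
Left, number of cells by UMIs of the 39 replication genes among 1000 UMIs, stacked by sort. Right, share of those UMIs held by the cells taken from the highest down, with the dashed line for an even spread; 7.02% of the cells held 40.3% of the UMIs.

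The variance over the mean of the summed members at 1000 UMIs, which is 1 for independent counting, was 2.33 to 4.56 in the 8 libraries. For the 8 stem cell markers summed it was 0.99 to 2.01, for the 48 other replication pathway genes 1.00 to 1.95, and for 24 genes of G2 and mitosis 2.18 to 8.73. The sums differ in mean level, which this ratio also follows. Taken 1 gene at a time, the members were less uneven. The dispersion ratio, the scatter of a gene's UMIs over cells relative to counting at each cell's depth, had a median of 1.16 over the 26 tested members beside 1.11 over all genes tested and 2.06 over 14 tested genes of G2 and mitosis. It was above 1.5 for 3 members, Pcna (2.31), Mcm7 (1.76) and Lig1 (1.73), or 11.5% of the 26, where 7.01% of all genes tested were above 1.5. A sum has more UMIs than its parts, so the 2 measures are not on the same footing.

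A UMI of Mcm2 to Mcm7 at 1000 UMIs was found in 23.96%, 22.2%, 18.9% and 18.1% of the cells of Dlk1- replicates 1 to 4, and in 20.9%, 18.5%, 34.6% and 25.9% of those of Dlk1+ replicates 1 to 4. Dlk1+ replicate 3, with 9 of 26 cells, was the highest and had a 95% Wilson interval of 19.4% to 53.8%, and intervals of this kind cover counting error only. The means were 20.8% ± 2.76 and 25.0% ± 7.12 (SD, n = 4 each), and the groups overlapped. With all UMIs of each cell they were 55.8% and 48.5%, in the order of depth.

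Cells with Mcm transcripts also held the other replication transcripts. At 1000 UMIs, cells with 0 Mcm UMIs had 0.69 ± 0.28 UMIs of the other 33 members, and cells with at least 2 Mcm UMIs had 4.24 ± 1.72 (mean and SD over 8 libraries). The second value was higher in 8 of 8 libraries, but that class held only 2 to 7 cells per library. For the other replication pathway genes the values were 1.21 ± 0.17 and 3.22 ± 2.10 (7 of 8 libraries), for the genes of G2 and mitosis 0.24 ± 0.15 and 0.46 ± 0.60 (4 of 8), and for the stem cell markers 2.08 ± 0.24 and 2.01 ± 0.83 (3 of 8). Pcna, for example, had a UMI in 12.8% of the 422 cells with 0 Mcm UMIs and in 46.2% of the 13 cells with at least 3. The 86 cells with exactly 1 Mcm UMI had the most UMIs of the G2 and mitosis genes. Over all cells these were 0.26, 0.98, 0.65 and 0.23 per cell with 0, 1, 2 and at least 3 Mcm UMIs. Median depth before thinning differed between these classes, and its part in the result was not tested.

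Each gene was then compared with the rest of the list. A cell was called loaded when at least 3 of its 1000 UMIs came from the other members, the gene in question being left out, and the share of the gene's UMIs in loaded cells was divided by the share of all UMIs there. This measure was added after the data had been seen, and it is a description with no test. Counted over all 39 members, 82 of the 541 cells were loaded. The ratio was above 1 for 39 of 39 members and above 2 for 32, with a median of 2.66 beside 1.08 for the 5640 other genes tested, of which 1.38% were above 2. It was as large without barcode 91 (median 2.71), which was not loaded.

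The order among the members followed no single complex. The highest ratios belonged to Ung (4.09), which removes uracil from DNA, Gins2 (4.07), Uhrf1 (3.51), which recruits Dnmt1 to new DNA, Gins1 (3.49) and Lig1 (3.45). Of the 53 Ung UMIs, 43 lay in loaded cells, and of the 92 of Uhrf1, 64. Rrm2, Cdt1 and Mcm5 followed at 3.40, 3.25 and 3.23. The 6 Mcm subunits ran from 2.61 for Mcm4 to 3.23 for Mcm5, and Pcna, abundant as it was, had 2.72. At the low end stood Rfc4 (1.51, from 10 UMIs), Rpa1 (1.57), Gins3 (1.68), Pold2 (1.75), Pole (1.90), Rfc1 (1.96) and Rpa3 (1.99). Pole, which had the largest log2 fold change of the 26 tested members, was above 2 (2.38) without Dlk1+ replicate 4, where it had 0.54, and at 2.19 when 4 UMIs made a cell loaded. Its ratio was 1.44 in Dlk1+ and 2.64 in Dlk1- cells, a difference that was not tested. Genes with few UMIs have the least certain place in this order.

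**Figure D4:**
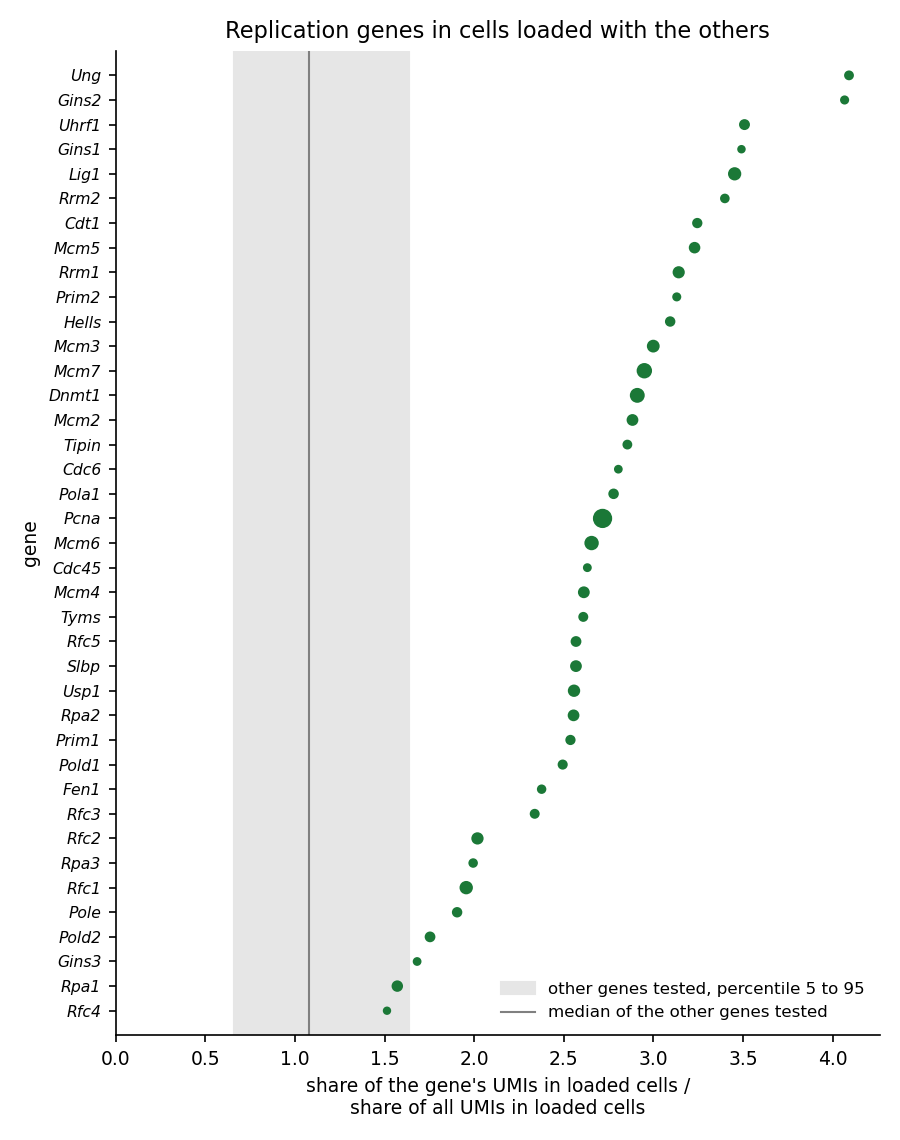
Share of each replication gene's UMIs in loaded cells (at least 3 of 1000 UMIs from the other members) over the share of all UMIs there, with point area growing with the gene's UMIs. The grey band spans percentiles 5 to 95 of the 5640 other genes tested and the line their median of 1.08; Rfc4 (1.51) and Rpa1 (1.57) fall inside the band and Ung (4.09) is the highest.

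The median ratio was 2.79 for the 14 members with an E2F heptamer in the 250 bases and 2.61 for those with an entry and no heptamer. The 6 promoters shown above span both kinds. Mcm5, Mcm6, Rrm1 and Rrm2, with heptamers, had 3.23, 2.66, 3.14 and 3.40, and Dnmt1 and Mcm2, without, had 2.91 and 2.88. Over all 31 the 2 kinds overlapped widely. Gins3 (1.68) and Rpa3 (1.99) held a heptamer, and Ung (4.09) and Lig1 (3.45) held none. For the CCAAT box the medians were 2.66 with and 2.71 without it.

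Genes outside the list behaved in part like it. Among the 48 other replication pathway genes, 20 were tested between the sorts and 0 were called, and the median log2 fold change was 0.15. Tk1, the thymidine kinase of S phase, was the 1 with an unadjusted p under 0.05 (log2 fold change 1.20, adjusted p 0.713 by limma-voom). In loaded cells Mcm10 had a ratio of 4.13, Tk1 of 4.11, Timeless of 4.03 and the licensing inhibitor Gmnn of 3.95, while Samhd1, which breaks down nucleotides, had 0.64. The median over all 48 was 1.98, with 24 above 2, and over the 20 tested, which hold Tk1 and Samhd1 but not the other 3, it was 1.64 with 3 above 2. Of the 24 regulators of the step from G1 to S, 12 were tested and 0 were called. At an unadjusted p under 0.05 by limma-voom, 2 were higher in Dlk1+ libraries (Cdkn1a and Cdk4) and 1 lower (E2f4). Over all genes tested these shares were 2.31% and 4.18%. The inhibitor Cdkn1a had a log2 fold change of 1.20 (adjusted p 0.55 by limma-voom). The median ratio of the 12 in loaded cells was 1.22, or 1.51 over all 24. E2f8 and E2f1, which were not tested, had 4.83 and 3.70, with 23 of 24 E2f8 UMIs in loaded cells, against 0.87 for Ccnd2 and 0.89 for the inhibitor Cdkn1b. The 14 tested genes of G2 and mitosis had a median ratio of 2.45, and all 24 one of 2.49, with Top2a at 3.36.

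Within libraries, loaded cells were set against cells with 0 member UMIs. Genes of G2 and mitosis summed to 2030 ± 810 CPM in loaded cells and 195 ± 258 CPM in the others (SD over 8 libraries), higher in 8 of 8. The other pathway genes had 3020 ± 664 and 1110 ± 220 CPM (8 of 8), and the G1 to S regulators 2542 ± 801 and 1779 ± 563 CPM (8 of 8). The 8 stem cell markers had 1639 ± 392 and 2043 ± 287 CPM, and were higher in loaded cells in 1 of 8 libraries. The 5 megakaryocyte markers had 272 ± 183 and 109 ± 88.8 CPM (8 of 8), with Ppbp at 0 in 7 libraries. Some of these values rest on few cells. In Dlk1+ replicates 2 and 3 they were 46.5 and 480.5 CPM in 8 and 7 loaded cells, against 0 CPM in 7 and 14 cells. Myeloid markers had 248 ± 162 and 231 ± 137 CPM (4 of 8). Erythroid markers had 886 ± 325 and 680 ± 243 CPM (6 of 8), with Car1 at 0, and multipotent progenitor markers 80.5 ± 56.2 and 52.0 ± 27.8 CPM (5 of 8). T cell markers were at 0. Loaded cells were also deeper, with a library median of 6106 against 3945 UMIs (8 of 8). The part of depth and of these other markers in the load was not tested.

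**Figure D5:**
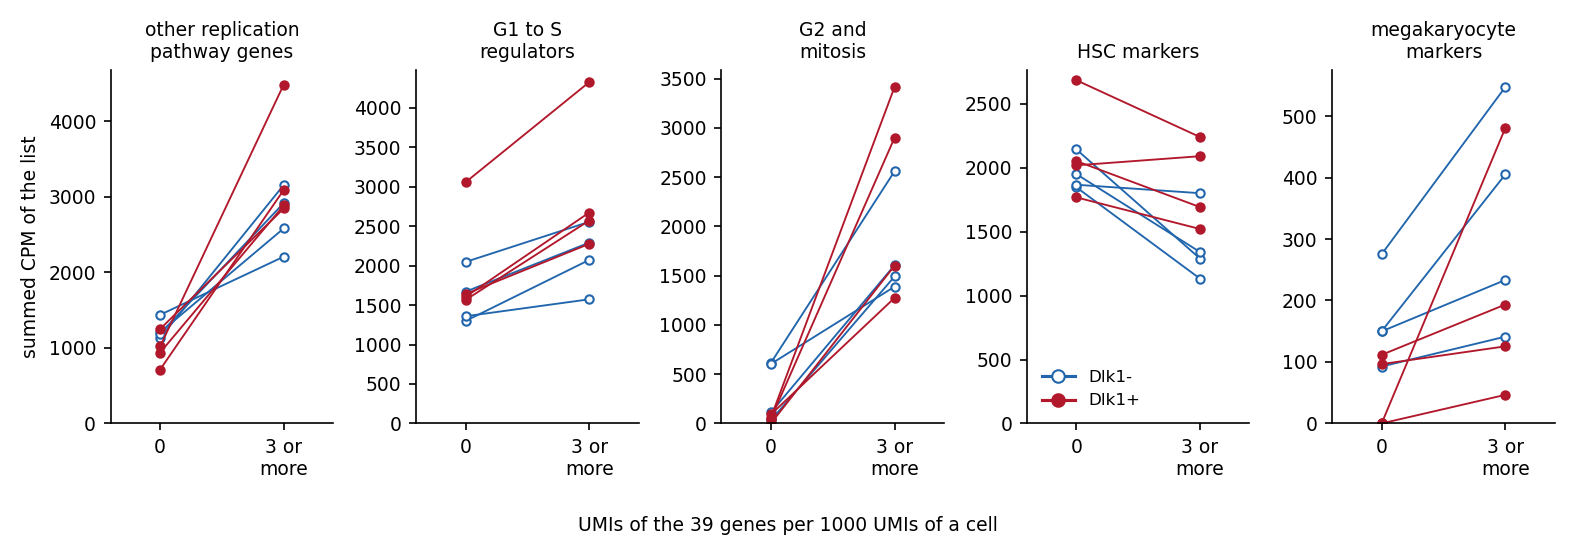
Summed CPM of 5 gene lists in cells with 0 and with at least 3 UMIs of the 39 replication genes per 1000 UMIs; each line joins the 2 values of 1 library (open blue Dlk1-, filled red Dlk1+), and the vertical scales differ. Genes of G2 and mitosis were higher in loaded cells in 8 of 8 libraries, and stem cell markers in 1 of 8.

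By sort, loaded cells made up 14.6%, 13.9%, 13.7% and 11.7% of the cells of Dlk1- replicates 1 to 4 and 12.8%, 29.6%, 26.9% and 16.0% of those of Dlk1+ replicates 1 to 4. Dlk1+ replicate 1 lay inside the Dlk1- range, and the 2 high libraries had 27 and 26 cells.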

How the data were processed

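The deposited tables hold transcript numbers for every gene in every barcode, which the authors made from UMIs. Reads were aligned with BWA 0.6.2-r126 to mm10, per the submitters' processing notes, while the counting tool, its annotation and its use of strand are not given in the sources used here. The values have no fixed unit in the file headers, and each came back to a whole UMI number within 1e-06 when the collision correction for 4096 UMIs was undone. Cells were barcodes 1 to 96 (Dlk1+) or 97 to 192 (Dlk1-) with at least 1000 transcripts, without 10 barcodes (17, 20 to 24 and 29 to 32) that the rule for this gene list leaves out. No doublet caller was run.

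Transcripts were summed per library and tested with limma 3.58.1 (voom) in R 4.3.3, with TMM scaling computed in Python 3.11.15, group as the only term, and Benjamini-Hochberg adjustment over 5666 genes. A gene was tested when at least 4 libraries reached the CPM that 10 counts make in a library of median size, and its total was at least 15. The edgeR test of the plan and DESeq2 were not run, although the values came back to whole UMI numbers. The fallback of the plan, limma-voom, was used in their place. The procedure was tested on simulated data. CPM is per 1000000 transcripts of the kept cells, and values are mean ± SD over libraries, with no test over cells. Cells were thinned with a fixed seed.

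The members and lists were chosen with earlier results of these data known. Values in every library are given for members past the threshold, members whose groups did not overlap, the 3 largest changes each way, the highest member of each role, and Mcm2 to Mcm7. Alternatives covered scaling, filter, plate, replicate block, each library left out, cell minimum, barcodes, cells of very high transcript number, and Gm10800 and Gm26870 left out.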

Additional observations from a re-analysis of the deposited data

Results flagged for a closer look

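In 90 groups of 4 libraries (39 genes and 6 sums or shares, in each sort), 8 had 1 library far from the other 3, where chance gives about 1 in 20. In the Dlk1+ group these were Mcm5 (146 CPM in replicate 2, others 25.6 to 40.4), Pcna (322 CPM in replicate 2, others 188 to 205), Mcm7 (615 CPM in replicate 3, others 111 to 185), Lig1 (282 CPM in replicate 3, others 89.8 to 117) and Rfc4 (2.19 CPM in replicate 4, which is 1 UMI, others 0). All but Rfc4 fell in the 2 libraries of 27 and 26 cells. In the Dlk1- group these were Mcm7 (117 CPM in replicate 2, others 90.5 to 94.7), Rpa1 (65.1 CPM in replicate 2, others 37.7 to 39.96) and Gins3 (15.5 CPM in replicate 1, others 0 to 2.10).

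Replication transcripts also appeared on barcodes outside the cells analysed. Barcodes that a library did not use held 51 UMIs of the 39 genes among 23663. The 10 left-out barcodes held 265 among 120327 UMIs in the Dlk1+ libraries, whose cells lie in that range of barcodes, and 62 among 25978 in the Dlk1- libraries, whose cells lie outside it. The 2 shares were 2202 and 2387 UMIs per 1000000.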

How the results depend on the processing

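Under each of 25 alternatives 0 replication genes were called, and the lowest adjusted p of a member was 0.0906 (Pole, without Dlk1+ replicate 4). The number of calls over all genes was 2, and it was 1 with the replicate block, with limma-trend, between the plate 6 libraries and at a minimum of 2000 transcripts, 4 with the 10 barcodes kept, and 5 between the plate 5 libraries, without libraries of under 50 cells and with sample quality weights. Leaving out 1 library gave 1 to 19 (19 without Dlk1+ replicate 4). Same-numbered libraries correlated by 0.03 to 0.041, under the cut of 0.1, so the main test did not pair libraries by number. This cut does not exclude pairing. With the replicate block, which takes the number into account, 0 replication genes were called. As a hint from the data, not the design, each Dlk1+ library correlated best with its own number. The share of mitochondrial transcripts also ranked replicates 1 to 4 in the same order in both sorts. The share of Gm10800 and Gm26870 was lowest in replicate 4 of both. The number of cells, in contrast, differed widely between the replicate 3 libraries. Whether same-numbered libraries share an origin was not tested. The planned edgeR fit and a DESeq2 fit were not run. Leaving out barcode 91 or the libraries of under 50 cells, and the load of cells, were added after the data had been seen.

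Of 395 log2 fold changes of 16 tested named genes under the alternatives, 365 kept their sign and 30, of 10 genes, did not, and the cause was not tested. Between the plate 5 libraries the reversed values were Mcm3 -0.65, Mcm6 0.18, Rpa2 -0.076 and Rrm1 -0.43, and between those of plate 6 Mcm5 -0.054, Pcna -0.20 and Rpa1 0.26. Rrm1 was -0.060 with no minimum, -0.049 at 500 transcripts, -0.0095 with quality weights and -0.10 without libraries of under 50 cells. Without those libraries Mcm2 was 0.014, Mcm6 0.073, Pcna -0.0045 and Rpa1 0.015. Mcm6 was 0.12 and Slbp 0.056 at 2000 transcripts, and Mcm6 0.075 with quality weights. Leaving out 1 library gave -0.20 to 0.61 for Mcm3, -0.064 to 0.38 for Mcm4, -0.11 to 0.69 for Mcm5, -0.19 to 0.088 for Mcm6, -0.072 to 0.31 for Pcna, -0.52 to 0.21 for Rpa1, -0.27 to 0.41 for Rrm1 and -0.21 to 0.037 for Slbp.

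The difference in summed level, 474 CPM, ranged from 312 to 651 CPM without 1 library. The difference in cells with a Mcm UMI, 4.19 percentage points, ranged from 0.988 to 6.35 without 1 library, was 16.3 at 2000 transcripts and -7.34 without thinning. At 2000 transcripts 13 members had a UMI in all 8 libraries in place of 25, and without 1 library 25 to 33. The median dispersion ratio of the 39, 1.09, was 0.87 with no minimum. The median ratio in loaded cells, 2.66, was 2.02 when 2 UMIs made a cell loaded, 3.33 when 4 did, and 2.61 to 2.77 without 1 library.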
